A study of Homo sapiens with 12 samples.

Results

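Lineage and subtype genes of ovarian carcinoma were followed in 2 established human ovarian cancer lines, CAOV3 and TOV21G, with and without ascites, the peritoneal effusion of ovarian cancer. The 9 genes were PAX8, WT1, SOX17, MECOM, EMX2, NAPSA, GPX3, ARID1A and ARID1B, taken by symbol from the 19251 genes with deposited values. Values were present for 7 of them, and SOX17 and EMX2 were not analysed here. The test was run on 17616 genes with a value of at least 10 in at least 3 libraries, and 6 of the 7 genes passed this filter, the exception being NAPSA.

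Each of 4 groups held 3 libraries. CAOV3, labelled high grade serous, and TOV21G, labelled clear cell, were either left without treatment or given 10% ascites for 16 h, and both lines grew in DMEM with 10% fetal bovine serum and antibiotics. The genotype was given as WT for all groups, no vehicle was described for the untreated wells, and the source of the ascites was not described. Nothing in the labels says that replicates came from separate cultures, so p-values measure the spread between these libraries, which may be technical. Each histological type is represented by 1 line, so a difference between the lines cannot be told apart from a difference between the types.

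PAX8, WT1, MECOM, SOX17 and EMX2 are transcription factors. PAX8 marks the epithelium that arises from the Mullerian ducts and most ovarian carcinomas. WT1 is a zinc finger factor of the urogenital ridge and mesothelium, used in pathology as a marker of serous carcinoma and usually absent from clear cell carcinoma. NAPSA, an aspartic protease, and GPX3, a secreted glutathione peroxidase, are associated with clear cell carcinoma. ARID1A and ARID1B are alternative DNA-binding subunits of the SWI/SNF chromatin remodeller BAF, and loss of ARID1A is frequent in clear cell carcinoma.

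The recovered reads totalled 26697609 to 34491304 per library. The first measurement was the difference between untreated lines, where 82.2% of all tested genes were called at an adjusted p under 0.05, 40.8% higher and 41.4% lower in TOV21G. All 6 tested lineage genes were called there, 5 higher in TOV21G and 1 lower. WT1 and GPX3 passed the filter only through TOV21G, so a difference in them was built into the filter, and the count is not more than a description beside a background of this size. Values are the authors' normalised read counts, meaning reads divided by a size factor for each library, and are not corrected for gene length. Log2 differences are on the scale of log2(value + 1), with the standard error (SE) from limma and p-values adjusted by Benjamini-Hochberg over all tested genes.

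The lineage transcription factors are described first. PAX8 (ENSG00000125618, chr2:113215997-113278950, minus strand, GENCODE 29 on GRCh38) had 18.2, 20.4 and 18.8 normalised counts in the CAOV3 controls and 6797, 7309 and 6989 in the TOV21G controls. The CAOV3 libraries held 16, 19 and 19 reads of it, so the line labelled high grade serous carried PAX8 at a trace level. PAX8 was 368-fold higher in TOV21G (log2 difference 8.45, SE 0.08, limma adjusted p = 9.41e-17). WT1 (ENSG00000184937, chr11:32387775-32435630, minus strand) had 5.67, 2.15 and 5.94 normalised counts in the CAOV3 controls and 234, 219 and 231 in the TOV21G controls. WT1 was 49.7-fold higher in TOV21G (log2 difference 5.44, SE 0.32, limma adjusted p = 1.57e-09). Every TOV21G control lay above every CAOV3 control for both genes, a separation that 40.9% of all tested genes shared in that direction and 82.6% in either direction.

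WT1 therefore ran against the labelled types, since its RNA was close to the floor of 3 reads in the line labelled serous and clearly present in the line labelled clear cell. Protein was not measured, and the identity of the lines was not checked. The low PAX8 of CAOV3 also ran against its label, whereas the high PAX8 of TOV21G did not.

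PAX8, WT1 and GPX3 are the members that were at or near the floor in 1 line, and the RefSeq promoter sequence (GRCh38.p14) before their outermost annotated starts is shown 5′ to 3′ on the strand of the gene, with each CpG, the site of DNA methylation, in capitals. The stretches are chr2:113278951-113279171 for PAX8, chr11:32435631-32435789 for WT1 and chr5:151020341-151020437 for GPX3.
PAX8: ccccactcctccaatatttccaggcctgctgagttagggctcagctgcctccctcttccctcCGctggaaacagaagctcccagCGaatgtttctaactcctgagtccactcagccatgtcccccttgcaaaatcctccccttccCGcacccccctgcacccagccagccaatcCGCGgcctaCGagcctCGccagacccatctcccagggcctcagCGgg
WT1: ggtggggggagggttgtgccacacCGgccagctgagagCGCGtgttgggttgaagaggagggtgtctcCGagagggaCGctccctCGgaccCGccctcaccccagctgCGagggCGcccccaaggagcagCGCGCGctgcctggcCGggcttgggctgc
GPX3: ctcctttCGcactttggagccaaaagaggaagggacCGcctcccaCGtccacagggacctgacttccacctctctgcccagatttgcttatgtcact
The 250 bases before the outermost RefSeq start hold 11 CpG for PAX8, 19 for WT1 and 17 for GPX3, against a median of 11 over 35116 windows of that length. These windows run on into the annotated genes, and the shorter stretches shown hold 8 CpG for PAX8, 13 for WT1 and 3 for GPX3. As many CpG or more were found in 50.3% of the windows for PAX8, 34.6% for WT1 and 39% for GPX3. The other RefSeq starts of WT1, which lie inside the annotated gene, have 13, 18 and 3 CpG in their windows, with 46.6%, 36.8% and 77.1% of all windows holding as many or more. Methylation and factor binding were not measured, so the sequences describe the loci and nothing in them was tested.

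Antisense genes overlap both loci, and the strandedness of the counting is not given in the sources used here. PAX8-AS1 shares 685 exonic bases with PAX8 on the other strand and had 16.6 ± 3.61 normalised counts in the CAOV3 controls and 13.5 ± 6.23 in the TOV21G controls (SD, n = 3), which overlapped. WT1-AS shares 113 exonic bases with WT1 and had 0.359 ± 0.621 in the CAOV3 controls and 49.5 ± 12 in the TOV21G controls (SD, n = 3; log2 difference 5.28, limma adjusted p = 1.91e-09). WT1 and WT1-AS were therefore both higher in TOV21G, and reads of the shared bases cannot be assigned to either gene.

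MECOM (ENSG00000085276, chr3:169083499-169663618, minus strand) encodes the zinc finger factor EVI1 and its longer form with the MDS1 part, and lies in a region often amplified in serous carcinoma. Its values were 1223, 1136 and 1292 normalised counts in the CAOV3 controls and 4085, 4210 and 4422 in the TOV21G controls. MECOM was expressed in both lines and was 3.48-fold higher in TOV21G (log2 difference 1.80, SE 0.05, limma adjusted p = 6.37e-13).

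GPX3 (ENSG00000211445, chr5:151020438-151028993, plus strand) had 0 reads in all 6 CAOV3 libraries, which allows up to 3.2 normalised counts in the controls at 3 reads per library. It had 294, 248 and 267 normalised counts in the TOV21G controls. GPX3 was at least 84.3-fold higher in TOV21G (limma adjusted p = 1.2e-13). NAPSA (ENSG00000131400, chr19:50358477-50365830, minus strand) had 2.27, 4.3 and 3.96 normalised counts in the CAOV3 controls and 11.9, 5.24 and 7.18 in the TOV21G controls. It reached at most 12 reads in any of the 12 libraries. All TOV21G controls lay above all CAOV3 controls, but the level was near the floor in both lines and NAPSA was not tested with the filter. Without the filter it was called higher in TOV21G (log2 difference 0.98, SE 0.40, limma adjusted p = 0.0386). NR1H2 overlaps NAPSA on the other strand with 0 shared exonic bases, and had 614 normalised counts in the CAOV3 controls and 1348 in the TOV21G controls. Its part in the few NAPSA reads was not tested. Of the clear cell markers among the members, GPX3 thus followed the label of TOV21G, and NAPSA was present there in a few reads only.

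ARID1A (ENSG00000117713, chr1:26693236-26782110, plus strand) was the 1 member lower in TOV21G. Its values were 5822, 5828 and 5424 normalised counts in the CAOV3 controls and 1529, 2121 and 1804 in the TOV21G controls. ARID1A was 3.13-fold lower in TOV21G (log2 difference -1.66, SE 0.11, limma adjusted p = 5.72e-09). Every TOV21G control lay below every CAOV3 control, as for 41.7% of all tested genes. ARID1B (ENSG00000049618, chr6:156776020-157210779, plus strand) had 3347, 3417 and 3432 normalised counts in the CAOV3 controls and 5005, 5844 and 5676 in the TOV21G controls. It was 1.62-fold higher in TOV21G (log2 difference 0.69, SE 0.05, limma adjusted p = 2.25e-08). The paralogs thus differed in opposite directions between the lines, and ARID1A RNA remained well above the floor in TOV21G. Mutation of ARID1A and its protein were not examined, so these counts do not show whether the protein is present. The ratio of ARID1A to ARID1B normalised counts was 1.675 ± 0.084 in the CAOV3 controls and 0.329 ± 0.030 in the TOV21G controls (SD, n = 3). Both genes carry an overlapping antisense gene: AL512408.1 at ARID1A had 25.6 and 42.3 normalised counts, and AL355297.4 at ARID1B had 17.9 and 37.3, in the CAOV3 and TOV21G controls, a small part of the counts of either gene.

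**Figure D1:**
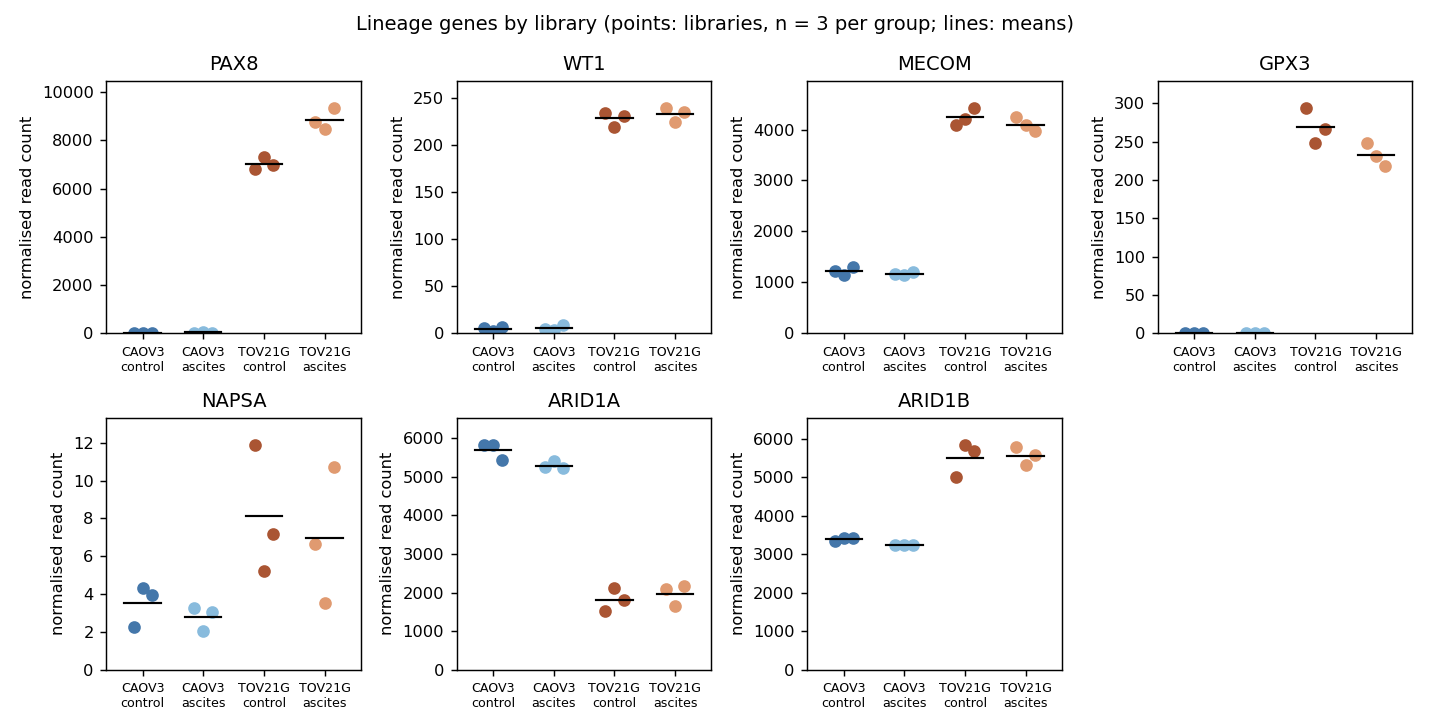
Normalised read counts (vertical axes, each from 0) of the 7 lineage genes in each library, grouped by line and treatment (points, n = 3 per group; lines, means). PAX8, WT1, MECOM, GPX3 and ARID1B are higher and ARID1A is lower in every TOV21G library than in every CAOV3 library, while NAPSA stays at 11.9 or less.

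Levels were compared between genes only after division by transcript length, as normalised counts per kb of the principal transcript. In the TOV21G controls the order was PAX8 at 1694 ± 62.3 per kb, MECOM at 1076 ± 43.1, ARID1B at 692 ± 55.8, ARID1A at 212 ± 34.5, GPX3 at 165 ± 13.9, WT1 at 147 ± 5.05 and NAPSA at 5.24 ± 2.22 (SD, n = 3). ARID1A and GPX3, neighbours in this order, overlapped between libraries, from 178 to 247 and from 152 to 180. In the CAOV3 controls the order was ARID1A at 663 ± 26.9 per kb, ARID1B at 427 ± 5.73, MECOM at 309 ± 19.8, PAX8 at 4.61 ± 0.283, WT1 at 2.95 ± 1.36, NAPSA at 2.27 ± 0.703 and GPX3 at 0. WT1 and NAPSA overlapped there. PAX8 thus led the members in TOV21G and stood with the trace genes in CAOV3. The place of ARID1B depends on the length used, because its annotated exons join to 44.677 kb against 7.962 kb for the principal transcript. Per kb of joined exons, ARID1B had 76.1 in the CAOV3 controls, below MECOM at 134, and 123 in the TOV21G controls, overlapping ARID1A at 114 ± 18.6 (SD, n = 3).

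Genes with the most similar profile were found as those with the smallest root mean square difference of log2 values, each centred on its own mean, over the 12 libraries. The 2 lines set most of this measure, so it finds genes with a like line difference. PAX8 was closest to FAM110C (0.14) and RFTN1 (0.17), WT1 to MSLN (0.24), the gene of mesothelin, and RCN3 (0.27), and MECOM to GNAQ (0.05) and MAP3K5 (0.05). GPX3 was closest to LINC00839 (0.07) and ZSCAN18 (0.08), ARID1B to MLXIP (0.03) and NUP210 (0.04), and ARID1A to the chromatin genes CHD7 (0.04) and NSD1 (0.07). FAM110C, RFTN1, LINC00839 and ZSCAN18 had a mean of 0 in the CAOV3 controls, so their line differences depend on the 1 added before the log. FAM110C and RFTN1 had 343 and 393 normalised counts in the TOV21G controls, far below PAX8, so their likeness to PAX8 rests on that added 1.

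Other Mullerian and serous genes did not follow a single direction between the untreated lines. Of 28 listed genes, 18 had values and 17 were tested, 10 were called higher in TOV21G and 5 lower, with a median log2 difference of 1.32 against -0.02 over all tested genes. The share called was 88.2%, against 82.2% of all tested genes (40.8% higher and 41.4% lower). The list contains PAX8, WT1 and MECOM, and some of its genes passed the filter only through 1 line, such as WT1, LHX2 and WNT7A through TOV21G and CDH6 through CAOV3. Differences in such genes were built into the filter, so the counts and the median only describe the list. LHX2 and WNT7A, a homeobox gene and a Wnt ligand of the female tract, had 0 reads in the CAOV3 controls and 297 and 187 normalised counts in the TOV21G controls, at least 92.7-fold and 58.5-fold higher. PAX2, the paralog of PAX8, had 9.61 against 131 (log2 difference 3.68). MSLN, a surface glycoprotein of mesothelium and serous carcinoma, had 14.8 against 510 (log2 difference 5.11). Lower in TOV21G were the homeobox genes LHX1, with 1844 against 14.7 (log2 difference -6.89), and HOXA13, with 242 against 8.42 (log2 difference -4.84), and the cadherin CDH6, with 638 against 0.723. HOXA9 did not pass the test, at 1430 and 1483 normalised counts (limma adjusted p = 0.239), and neither did MUC16, the gene of the antigen CA125, at 12 and 6.54 (limma adjusted p = 0.147).

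Most clear cell carcinoma genes on the list were higher in TOV21G. Of 26 listed genes, 25 had values and 23 were tested, 16 were called higher and 5 lower, with a median log2 difference of 1.34 against -0.02 over all tested genes. The share called was 91.3%, against 82.2% of all tested genes (40.8% higher and 41.4% lower). The list holds GPX3 and NAPSA, and some of its genes, GPX3, TFPI2, SPP1, RIMKLB and IL6 among them, passed the filter only through TOV21G. DPP4 and UGT1A1 passed it only through CAOV3. Differences in these genes were built into the filter, so the counts and the median only describe the list. TFPI2, a secreted protease inhibitor, had 0 reads in the CAOV3 controls against a mean of 4598 normalised counts in the TOV21G controls. SPP1, which encodes osteopontin, had 4.97 against 137933 (log2 difference 14.70), and FXYD2, a subunit of the sodium pump, had 29.8 against 793 (log2 difference 4.69). Lower in TOV21G were the peptidase DPP4, with 3000 against 0.598, UGT1A1, with 13 against 0, and the glutaredoxin GLRX, with 796 against 367 (log2 difference -1.12). SOD2, the mitochondrial superoxide dismutase, had 3077 against 3073 and did not pass the test (limma adjusted p = 0.994).

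**Figure D2:**
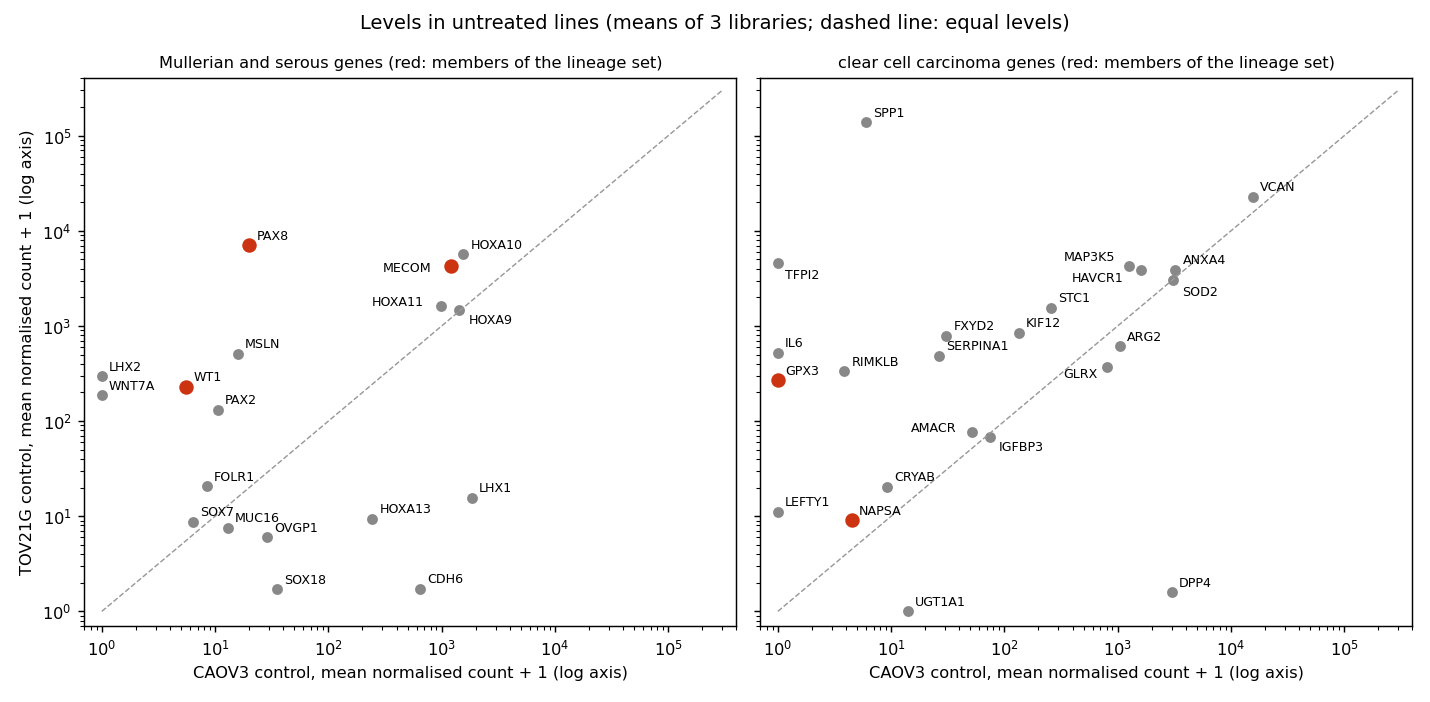
Mean normalised count plus 1 in the CAOV3 controls (horizontal, log axis) against the TOV21G controls (vertical, log axis) for the Mullerian and serous list and the clear cell list (points, means of 3 libraries; dashed line, equal levels; red, members of the lineage set). TFPI2 and SPP1 stand far above the line, while DPP4, CDH6 and LHX1 stand far below it.

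ARID1A stood near the low end of the SWI/SNF subunits between the lines. Of 30 listed subunit genes, 29 were tested, 9 were called higher in TOV21G and 15 lower, with a median log2 difference of -0.18 against -0.02 over all tested genes, so the share called of 82.8% was close to the background. BCL11A and DPF3 passed the filter only through CAOV3. BCL11A, with 646 against 1.62 normalised counts, DPF3 (log2 difference -2.09) and SMARCD3 (-1.70) had lower log2 differences than ARID1A. The highest were SMARCE1, with 109 against 301 (1.45), BCL7C, with 736 against 1693 (1.21), and BICRAL, with 398 against 862 (1.11). The ATPase genes differed in opposite directions, SMARCA4 with 14366 against 10387 (-0.47) and SMARCA2 with 1347 against 2115 (0.65). The other DNA-binding subunit ARID2, of the PBAF form, did not pass the test, at 2461 and 2525.

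**Figure D3:**
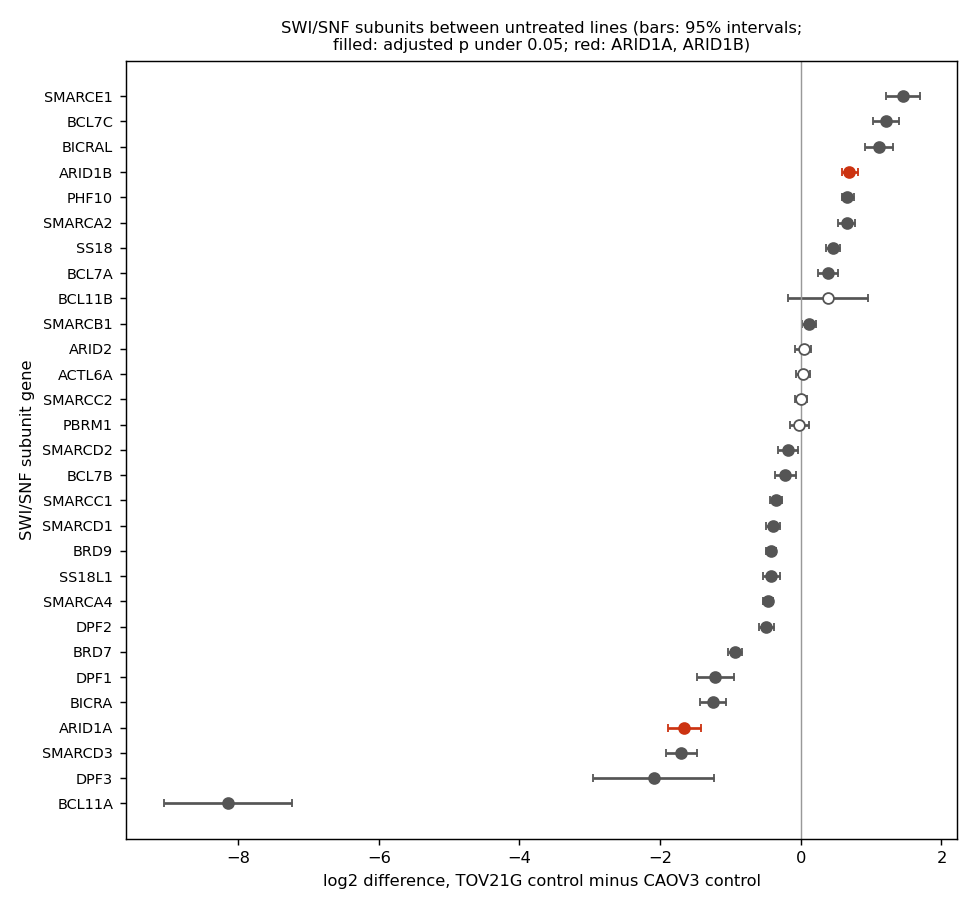
Log2 difference of the TOV21G controls minus the CAOV3 controls (horizontal axis) for the 29 tested SWI/SNF subunit genes (vertical axis; points, limma estimates; bars, 95% intervals; filled, called at an adjusted p under 0.05; red, ARID1A and ARID1B). ARID1A lies at -1.66 and ARID1B at 0.69.

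Of the glutathione peroxidases, GPX3 shared its pattern with GPX7, an endoplasmic reticulum member, which had 0 reads in the CAOV3 controls and a mean of 1073 normalised counts in the TOV21G controls, at least 335-fold higher. All 6 tested genes of the family were called, 4 higher and 2 lower in TOV21G, where 82.2% of all tested genes were called. GPX3 and GPX7 passed the filter only through TOV21G, and GPX2 only through CAOV3. GPX8 had 921 against 2594 (log2 difference 1.49) and GPX1 had 2975 against 3449 (0.21), while GPX4, the lipid hydroperoxide reductase, had 8293 against 4881 (-0.77) and GPX2 had 9.56 against 1.06 (-2.47).

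Markers of other cell types were read beside these values. Summed epithelial markers, of which 13 of 14 had values, ranged from 158536 to 159943 normalised counts in the CAOV3 controls and from 12239 to 13661 in the TOV21G controls, and 10 of the 13 tested were called lower in TOV21G, as were 41.4% of all tested genes. The keratins KRT7 (21580 against 293) and KRT19 (16839 against 274) and the claudin CLDN4 (3853 against 30.1) were among them, and OVOL1 (5.56 against 97) and MUC1 (50.1 against 402) were higher. Mesothelial markers, a class that also uses WT1 and MSLN, summed to 63.6 to 77.2 in the CAOV3 controls and 676 to 759 in the TOV21G controls over 6 of 9 genes. LRRN4, BNC1, UPK1B and MSLN were called higher in TOV21G, as were 40.8% of all tested genes, and CALB2, which encodes calretinin, was at 43 against 0.361. OVOL1, LRRN4, BNC1 and UPK1B passed the filter only through TOV21G, and CALB2 only through CAOV3, so differences in them were built into the filter. Fibroblast markers summed to 5560 to 6419 and 13669 to 14252 over 7 of 10 genes, with LUM and COL3A1 at 0 in the TOV21G controls and COL1A2 at 2.46 against 10854. Leukocyte markers, of which 3 of 12 had values, summed to 194 to 214 and 12.6 to 13.5, and LYZ was at 0 in the TOV21G controls. Endothelial markers, of which 2 of 8 had values, summed to at most 12.5 and 39.8. Their part in the line differences of PAX8, WT1 and the other members was not tested.

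The question set by the series was the effect of ascites, and the lineage genes were compared between ascites and control within each line. None of the 6 tested genes was called in CAOV3, where 1.73% of all tested genes were called (0.636% higher and 1.10% lower), and none in TOV21G, where the share was 0.409% (0.142% higher and 0.267% lower). At an unadjusted p under 0.05, limma gave 1 of the 6 in each line, PAX8 both times. Of all 17616 tested genes, 2280 in CAOV3 and 1615 in TOV21G were under that threshold. The count tests called 0 in CAOV3 and 1 in TOV21G, again PAX8, with edgeR and with DESeq2. Over all tested genes, edgeR called 511 in CAOV3 and 114 in TOV21G, and DESeq2 507 and 151.

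PAX8 had 8749, 8464 and 9342 normalised counts in the TOV21G ascites libraries, all above the 3 controls, a separation in this direction that 4.16% of all tested genes showed. Its mean was 1.26-fold higher with ascites (log2 difference 0.33, SE 0.08, 95% interval 0.15 to 0.51, limma adjusted p = 0.161). The edgeR quasi-likelihood test gave a log2 difference of 0.36 with an adjusted p of 0.00134, and DESeq2 0.33 with an adjusted p of 4.48e-07, so the call depended on the tool. In CAOV3 the ascites libraries had 20.8, 25.6 and 20.5 normalised counts, also all above the controls (log2 difference 0.20, 95% interval 0.02 to 0.39, limma adjusted p = 0.319), at 19 to 25 reads per library, where 11.4% of all tested genes lay fully higher and 24.2% were separated in either direction. The difference of the responses was 0.13 (SE 0.12, limma adjusted p = 0.66).

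The other members gave no call with any of the 3 tools. WT1 had 4.38, 3.07 and 8.18 normalised counts with ascites in CAOV3 (log2 difference 0.15, 95% interval -0.54 to 0.84) and 239, 224 and 235 in TOV21G (0.03, interval -0.66 to 0.72), and both sets overlapped their controls. The wide intervals of WT1 in TOV21G rest on a spread estimated over both lines, and its TOV21G libraries themselves lay within 219 to 239. MECOM had 1160, 1142 and 1206 in CAOV3 (-0.06, interval -0.16 to 0.05) and 4237, 4088 and 3969 in TOV21G (-0.05, interval -0.16 to 0.06), overlapping the controls in each line. GPX3 stayed at 0 reads in CAOV3 and had 248, 231 and 218 in TOV21G (-0.21, interval -0.62 to 0.20), with the highest ascites value just reaching the lowest control. No member lay fully lower with ascites in TOV21G, where 6.99% of all tested genes did and 11.1% were separated in either direction. NAPSA had 3.28, 2.04 and 3.07 normalised counts with ascites in CAOV3 and 6.63, 3.54 and 10.7 in TOV21G, overlapping the controls and not tested.

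ARID1A had 5240, 5408 and 5217 normalised counts with ascites in CAOV3, all below the controls (log2 difference -0.11, 95% interval -0.34 to 0.13, limma adjusted p = 0.758). ARID1B had 3242, 3249 and 3232 there, also all below (-0.07, interval -0.18 to 0.04, limma adjusted p = 0.644). A separation downward was found in 12.8% of all tested genes in CAOV3, so that of the paralogs was not unusual. In TOV21G, ARID1A had 2085, 1642 and 2179 (0.12, interval -0.12 to 0.35) and ARID1B 5776, 5311 and 5566 (0.01, interval -0.10 to 0.13), both overlapping the controls. The ratio of ARID1A to ARID1B was 1.631 ± 0.028 with ascites in CAOV3 and 0.354 ± 0.042 in TOV21G (SD, n = 3), so the line difference in this ratio was kept with ascites. No member was called for a difference of the responses between lines, where 0.545% of all tested genes were called by limma (0.238% higher and 0.307% lower). None had an unadjusted p under 0.05 there, against 2091 of all 17616 tested genes. The edgeR and DESeq2 tests also called 0 members, and 148 and 210 of all tested genes.

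**Figure D4:**
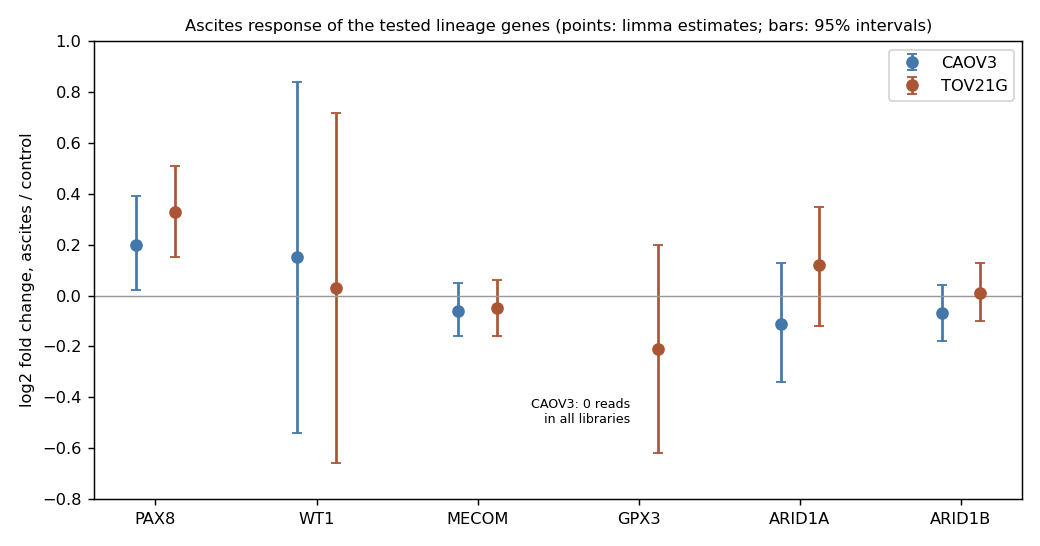
Log2 fold change of ascites over control (vertical axis) of the 6 tested lineage genes in CAOV3 (blue) and TOV21G (brown; points, limma estimates; bars, 95% intervals). The PAX8 intervals lie above 0 in both lines, at 0.20 and 0.33, and all others include 0.

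The control and ascites values of ARID1A overlapped within TOV21G. ARID1A was lowest in control 1 at 1529 and ascites 2 at 1642 and highest in ascites 3 at 2179. CHD7, whose profile was closest to that of ARID1A, was likewise lowest in control 1 at 2042 and ascites 2 at 2370 and highest in ascites 3 at 2973. CHD7 was picked for its likeness to ARID1A over these same libraries, so its matching order follows from that choice and adds no support. KCNQ1OT1, a long nuclear RNA, varied most widely, with 95.4, 656 and 234 normalised counts in the TOV21G controls and 731, 235 and 1511 in the ascites libraries. It was lowest in control 1 and highest in ascites 3, as ARID1A was. KCNQ1OT1 is on none of the lists and was named after its values were seen, so this match adds no support either. ARID1B ran from 5005 in control 1 to 5844 in control 2, with 5566 in ascites 3. ARID1A, CHD7 and KCNQ1OT1 thus shared their lowest and highest libraries, and ARID1B shared only the lowest. The part of library differences in the ARID1A values was not tested. Without control 1 and ascites 2, an alternative chosen after seeing the data, ARID1A was still called lower in TOV21G (log2 difference -1.54, limma adjusted p = 2.33e-10) and was not called for ascites (0.12, limma adjusted p = 0.498).

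**Figure D5:**
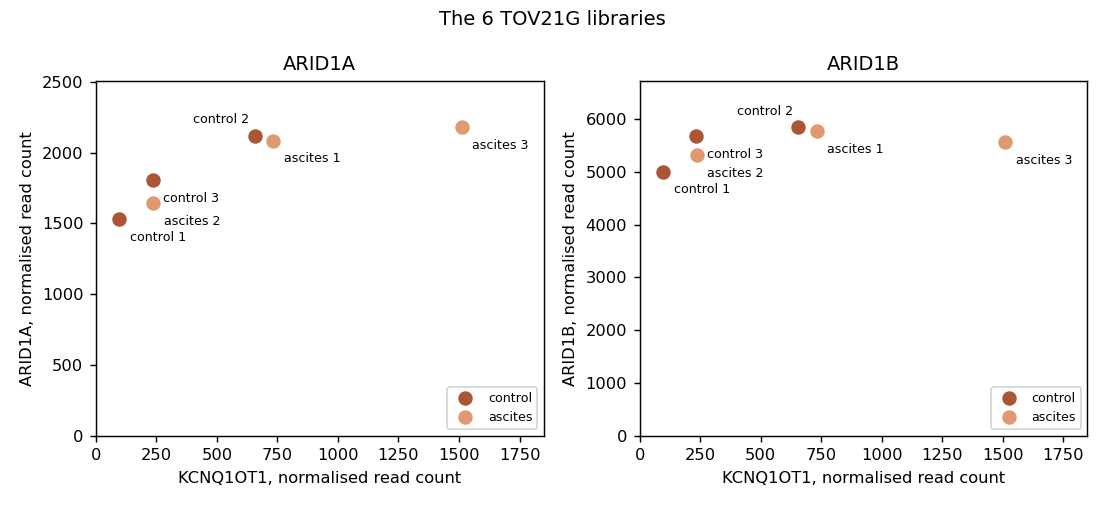
Normalised counts of ARID1A and ARID1B (vertical axes, from 0) against those of KCNQ1OT1 (horizontal axes) in the 6 TOV21G libraries (points, labelled by treatment and replicate). ARID1A is lowest where KCNQ1OT1 is lowest, in control 1 (1529 and 95.4), and highest where it is highest, in ascites 3 (2179 and 1511). KCNQ1OT1 was named after its values were seen.

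Of the 17 tested Mullerian and serous genes, limma called 0 in either line, with 2 at an unadjusted p under 0.05 in CAOV3 and 4 in TOV21G. The edgeR test called 1 in CAOV3 and 2 in TOV21G, and DESeq2 1 and 3. Over all tested genes, edgeR called 511 in CAOV3 and 114 in TOV21G, and DESeq2 507 and 151. Over all 17616 tested genes, limma gave an unadjusted p under 0.05 for 2280 in CAOV3 and 1615 in TOV21G. The 29 tested SWI/SNF subunits gave 0 calls in either line with all 3 tools, with 1 at an unadjusted p under 0.05 in CAOV3 and 2 in TOV21G. Of the 23 tested clear cell genes, SERPINA1 rose and KIF12 fell in CAOV3 (8.70% called, against 1.73% of all tested genes), and SOD2 rose in TOV21G (4.35%, against 0.409%). At an unadjusted p under 0.05, limma gave 8 of the 23 in CAOV3 and 4 in TOV21G, beside the 2280 and 1615 of all 17616 tested genes. The edgeR and DESeq2 tests each called 3 in CAOV3, 1 higher and 2 lower, and 2 in TOV21G, both higher. These stand beside 511 and 507 calls over all tested genes in CAOV3 and 114 and 151 in TOV21G.

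SERPINA1, the gene of alpha-1 antitrypsin, had 25, 21.5 and 29.7 normalised counts in the CAOV3 controls and 82, 44 and 76.7 with ascites (log2 difference 1.34, SE 0.21, limma adjusted p = 0.00407). With only the 6 CAOV3 libraries in the fit its adjusted p was 0.0858. KIF12, a kinesin, had 118, 124 and 158 against 88.6, 77.7 and 90 (log2 difference -0.63, SE 0.12, limma adjusted p = 0.0151), and lost its call with only the 6 libraries (adjusted p = 0.104), without control 3 (0.0545) or without ascites 2 (0.0771). SOD2 had 3113, 3055 and 3051 in the TOV21G controls and 3946, 4084 and 3741 with ascites (log2 difference 0.35, SE 0.05, limma adjusted p = 0.00524), and an adjusted p of 0.187 with only the 6 TOV21G libraries. For the difference of the responses between lines, limma called 0 of the 23 clear cell genes, with 5 at an unadjusted p under 0.05, while edgeR and DESeq2 each called 2. Of all 17616 tested genes, 2091 had an unadjusted limma p under 0.05 for this difference, and edgeR called 148 and DESeq2 210.

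GPX1, the cytosolic relative of GPX3, had 3104, 3080 and 2740 normalised counts in the CAOV3 controls and 3720, 3683 and 3638 with ascites (log2 difference 0.31, SE 0.06, limma adjusted p = 0.0138). Its call was lost with only the 6 CAOV3 libraries (0.0572), and without control 3 (0.0572), ascites 1 (0.0599) or ascites 2 (0.0571).

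Of the 13 tested epithelial markers, limma called 4 for ascites in CAOV3, 3 higher and 1 lower (30.8%, against 1.73% of all tested genes), and 1 in TOV21G, higher (7.69%, against 0.409%). MUC1, a membrane mucin, rose in CAOV3 from 46.5, 48.4 and 55.4 to 128, 109 and 129 normalised counts (log2 difference 1.27, SE 0.11, limma adjusted p = 6.06e-05). CLDN7 fell from a mean of 476 to 302 (-0.66, SE 0.10, limma adjusted p = 0.00379). ELF3, an epithelial ETS factor, rose in TOV21G from 179, 163 and 180 to 275, 318 and 255 (0.69, SE 0.08, limma adjusted p = 0.00115), with an adjusted p of 0.341 when only the 6 TOV21G libraries were fitted. The responses of MUC1 and ELF3 differed between the lines (TOV21G minus CAOV3, -1.19 and 0.75, limma adjusted p = 0.00445 and 0.0093). The keratins KRT8 (0.29, limma adjusted p = 0.0231) and KRT18 (0.33, limma adjusted p = 0.0102) were called higher in CAOV3 with ascites. Leaving out any 1 of the 6 CAOV3 libraries ended the call of KRT8 (adjusted p 0.0557 to 0.102), as leaving out ascites 1 (0.0501) or ascites 3 (0.052) did for KRT18. Summed over the list, epithelial markers ranged from 182905 to 193378 in the CAOV3 ascites libraries, above the controls, and from 11690 to 13419 in those of TOV21G, overlapping them. The sum is weighted by the most abundant genes, KRT8 (means 66468 to 81372 in CAOV3) and KRT18 (47679 to 59866). In CAOV3, 6 of the 13 lay fully higher with ascites and 2 fully lower, against 11.4% and 12.8% of all tested genes. The lower ones were CLDN7 and CDH1, from 425 to 272 without a call (-0.64, limma adjusted p = 0.438). KRT8 and CLDN7 also had adjusted p-values of 0.0483 and 0.036 for the difference of the responses, calls that held in 2 and 1 of the 12 omissions of a single library.

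Ascites can carry leukocytes and mesothelial cells. Leukocyte markers summed to 172 to 223 normalised counts in the CAOV3 ascites libraries and 15.2 to 22.1 in those of TOV21G, and mesothelial markers to 47 to 68.5 and 668 to 743. Only 3 leukocyte and 5 mesothelial markers were tested. For ascites, limma, edgeR and DESeq2 called 0 of them in either line, with 0 at an unadjusted p under 0.05 by limma. Limma called 1.73% of all tested genes in CAOV3 and 0.409% in TOV21G, and 2280 and 1615 of 17616 had an unadjusted p under 0.05. With so few markers tested, 0 calls is no departure from these shares, and carry-over of cells was not tested. The TOV21G ascites sum of leukocyte markers lay above the control range of 12.6 to 13.5. COL1A2 went from 2.46 to 0.365 normalised counts in CAOV3, both under the floor, and is the 1 fibroblast marker with an adjusted p under 0.05 by limma, a call that edgeR (0.232) and DESeq2 (0.314) did not make.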

How the data were processed

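RNA sequencing of 12 libraries (4 groups of 3) was used. Per the submitters' processing notes, Trim Galore, cutadapt, STAR, HTSeq and DESeq were used. Versions, build, annotation and strandedness are not given in the sources used here. The authors deposited a non-negative signal, the normalised read count, for each gene and library. The deposited values were whole reads divided by a size factor: 100% of values lay within 0.001 of a whole multiple, and the factors differed from those of DESeq2 by at most 6.7e-12 of their size. Symbols came from a gene name table for 19087 identifiers and from GENCODE 29 for 136, and 28 had none. Genes are placed by GENCODE 29 on GRCh38, and promoters by RefSeq on GRCh38.p14.

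The main test was limma 3.58.1 in R 4.3.3 (lmFit, eBayes with trend) on log2(value + 1), with all 12 libraries, a mean per group, 4 contrasts, genes of at least 10 in at least 3 libraries, and Benjamini-Hochberg adjustment per contrast, two-sided, called under 0.05. It was tested on simulated data. Alternatives were edgeR 4.0.16 and DESeq2 1.42.0 on the recovered reads, other pseudocounts, filters and scalings, only the 6 libraries of a comparison, a replicate block and leaving out each library. A group at 0 was set to 3 reads per library for lower bounds. Counting floors cover counting error only. Replicates of a group differed by more than sampling noise (chi-square per degree of freedom 1.81 to 8.38 in CAOV3 and 3.89 to 22.6 in TOV21G).

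The members and lists were chosen with earlier results of these data known. Named genes are the 9 members, the list genes called for ascites or with the 3 highest and 3 lowest line differences, antisense partners, and the 2 nearest profiles of each member. Other genes were named after their values were seen. Some results of the clear cell list are not reported here.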

Additional observations from a re-analysis of the deposited data

How the results depend on the processing

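All 6 tested lineage genes were called between the untreated lines with the same direction in all 23 alternatives, 22 planned and 1 added after seeing the data. Of 2376 line differences of listed genes under alternatives, 2360 kept direction and side of the threshold, 12 lost the call, 4 gained it and 0 reversed. Without the filter NAPSA made the count 7. For ascites, 0 lineage genes were called in either line in any omission of a library, and in TOV21G edgeR and DESeq2 each called 1, PAX8. The limma alternatives left PAX8 there uncalled, with adjusted p-values of 0.0607 to 0.562, and the log2 difference stayed within 0.29 to 0.36. Values that missed the threshold both in the main and in the alternative analysis and changed sign numbered 359, of which 13 were of lineage genes, such as WT1 in CAOV3, from -0.22 to 0.42, and they are not counted as reversals.

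Counts over all genes moved more. In CAOV3 the 305 ascites calls became 511 with edgeR, 507 with DESeq2, 485 with scaling to total reads, 614 without the 2 TOV21G libraries control 1 and ascites 2, and 172 to 344 when 1 library was left out. In TOV21G the 72 calls became 114 with edgeR, 151 with DESeq2, 8 with only the 6 TOV21G libraries and 24 to 136 when 1 library was left out. The 96 calls for the difference of the responses became 148 with edgeR, 210 with DESeq2, 151 with TMM scaling, 161 with scaling to total reads, 178 without the same 2 libraries and 40 to 146 when 1 library was left out; this difference could not be fitted on 6 libraries. The cause was not tested, except that fewer libraries give fewer degrees of freedom.

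The replicate numbers did not pair the libraries: over 11886 genes, deviations of same-numbered control and ascites libraries correlated at -0.07, 0.06 and 0.01 in CAOV3 and at -0.16, -0.42 and 0.07 in TOV21G. Across numbers, TOV21G control 1 correlated at 0.46 with ascites 2 and at -0.34 with ascites 3, and control 2 at 0.32 with ascites 3. With the replicate block the ascites calls fell to 116 in CAOV3 and 13 in TOV21G, and the calls for the difference to 9. No call of a lineage gene changed with the block. Of the list genes called for ascites, KIF12, GPX1, KRT8, KRT18, SOD2 and ELF3 were not called with it, nor were the differences in response of MUC1, ELF3, KRT8 and CLDN7.

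Few reads limit NAPSA in both lines and PAX8, WT1 and GPX3 in CAOV3. One spread per gene served both lines, which also applies to genes that are nearly unread in CAOV3.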

Other observations

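Other lineage genes had ascites values that the tools judged differently, and they are named here after their values were seen. HOXA10, a homeobox factor of the uterine and tubal field, had 1564, 1597 and 1502 normalised counts in the CAOV3 controls and 1384, 1298 and 1444 with ascites. In TOV21G it had 5691, 5536 and 5814 against 4877, 5315 and 4865, so all ascites libraries lay below all controls in both lines. Of all tested genes, 12.8% were separated in this direction in CAOV3 and 6.99% in TOV21G. The log2 difference was -0.18 in each line (limma adjusted p = 0.104 in CAOV3 and 0.203 in TOV21G). The edgeR test gave adjusted p-values of 0.0506 and 0.165, and DESeq2 0.0534 and 0.042. HOXA11, its neighbour in the HOXA cluster, had 1728, 1513 and 1613 in the TOV21G controls and 1316, 1437 and 1348 with ascites (log2 difference -0.24, limma adjusted p = 0.0838, edgeR 0.0269, DESeq2 0.0105). In CAOV3 HOXA11 had 990, 987 and 955 against 1044, 997 and 1022 (0.06, limma adjusted p = 0.673).

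IL6, a cytokine gene on the clear cell list, had 572, 505 and 495 normalised counts in the TOV21G controls and 827, 839 and 855 with ascites. All ascites libraries lay above all controls, as for 4.16% of all tested genes, and the log2 difference was 0.68 (limma adjusted p = 0.545, edgeR 0.000135, DESeq2 1.16e-10). In CAOV3 it had 0 reads in the controls and 2.19, 0 and 1.02 normalised counts with ascites, under the floor of 3 reads.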
